A study of Homo sapiens with 4 samples.

Results

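The genes described here encode the core machinery of autophagy and its cargo receptors, a list of 40 human genes taken by symbol from a table of 16057 genes. A row with the listed symbol was found for 39 of them, and ATG13 was not analysed here. RNA sequencing was done on MM.1S cells, a long-established line from a patient with multiple myeloma, that had received JG342 at 350 nM or its solvent DMSO for 26 h. JG342 is an allosteric inhibitor of HSP70, the family of chaperones that helps other proteins to fold. Each group held 2 libraries, numbered 1 and 2, which the series' design text calls biological duplicates. All 4 libraries came from this line, grown in RPMI-1640 medium with serum, antibiotics and glutamine, so the comparison concerns 1 line, 1 dose and 1 time.

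Autophagy is the route by which a cell wraps part of its cytoplasm in a double membrane, the autophagosome, and delivers it to the lysosome for breakdown. The ULK1 kinase complex starts the process, the class III phosphatidylinositol 3-kinase (PI3K) complex marks the membrane with a lipid that WIPI proteins bind, and ATG9 and ATG2 bring in lipid. Conjugation enzymes then attach small ubiquitin-like proteins of the ATG8 family to the membrane, where cargo receptors such as SQSTM1 dock through an ATG8-binding motif. Myeloma cells secrete large amounts of immunoglobulin, and plasma cells are known to depend on both the proteasome and autophagy for protein turnover.

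Values are TPM (transcripts scaled to a fixed library total), which divide reads by transcript length, so that levels can be compared between genes. TPM totals ran from 994463 to 994718 in the 4 libraries, and TPM holds no read depth, so the depth behind single values is unknown. A TPM is a share of the RNA in a library, and a change in the mix of cell states cannot be told apart here from a change within each cell. Of 8 plasma cell markers, the lowest value in any library was 22.04 TPM, for CD38. IRF4 and PRDM1, plasma cell transcription factors, were called higher with JG342, and TNFRSF17 and JCHAIN lower. The summed level of the 8 markers was 14356 and 14226 TPM with DMSO and 10104 and 9577 TPM with JG342. JCHAIN, the joining chain of secreted immunoglobulin, accounted for most of that difference, at 9907 and 10384 TPM against 5732 and 5431 TPM. Of 10 markers of other cell types, 9 were in the table, and the highest was LYZ at 37.0 to 46.2 TPM. The others stayed at or under 11.4 TPM, with EPCAM, CD14, ALB and COL1A1 under 1 TPM in every library. None of the 4 that could be fitted passed the test. The summed level of all 9 was 55.9 to 64.5 TPM with DMSO and 57.1 to 66.8 TPM with JG342. The part of these marker levels in the results was not tested.

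After JG342, 9 autophagy genes rose and none fell. The genes that rose were WIPI1, which reads the lipid mark on the forming membrane; the ATG8 genes MAP1LC3B and GABARAP; the receptors OPTN, CALCOCO2 and NBR1; the protease ATG4C; WDR45, another WIPI protein; and TFEB, a transcription factor for lysosomal and autophagy genes. Their rows carry the RefSeq transcripts NM_001320772, NM_022818, NM_007278, NM_001008211, NM_001261390, NM_001291571, NM_032852, NM_001029896 and NM_001167827, in that order. They were called by limma on log2(TPM + 1) at an adjusted p under 0.05 over the 12042 genes whose mean reached 1 TPM, which included 38 of the 39 autophagy genes. The 9 genes are 23.7% of those 38, against 10.8% of all fitted genes called higher, and none were called lower against 7.62% of all genes. Over all fitted genes that is 1304 higher and 917 lower, a balance that turned to 967 higher and 1202 lower after median scaling, with the 9 autophagy genes still called. At an unadjusted p under 0.05, 15 of the 38 passed, against 33.6% of all fitted genes, a share close to theirs. Both JG342 libraries lay above both DMSO libraries for 23 of the 38 genes and below them for none. The shares over all fitted genes were 34.0% and 28.2%. The list of autophagy genes was chosen with earlier results of these data known. Its shares, set against those of all genes, are therefore a description and not an independent test.

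**Figure D1:**
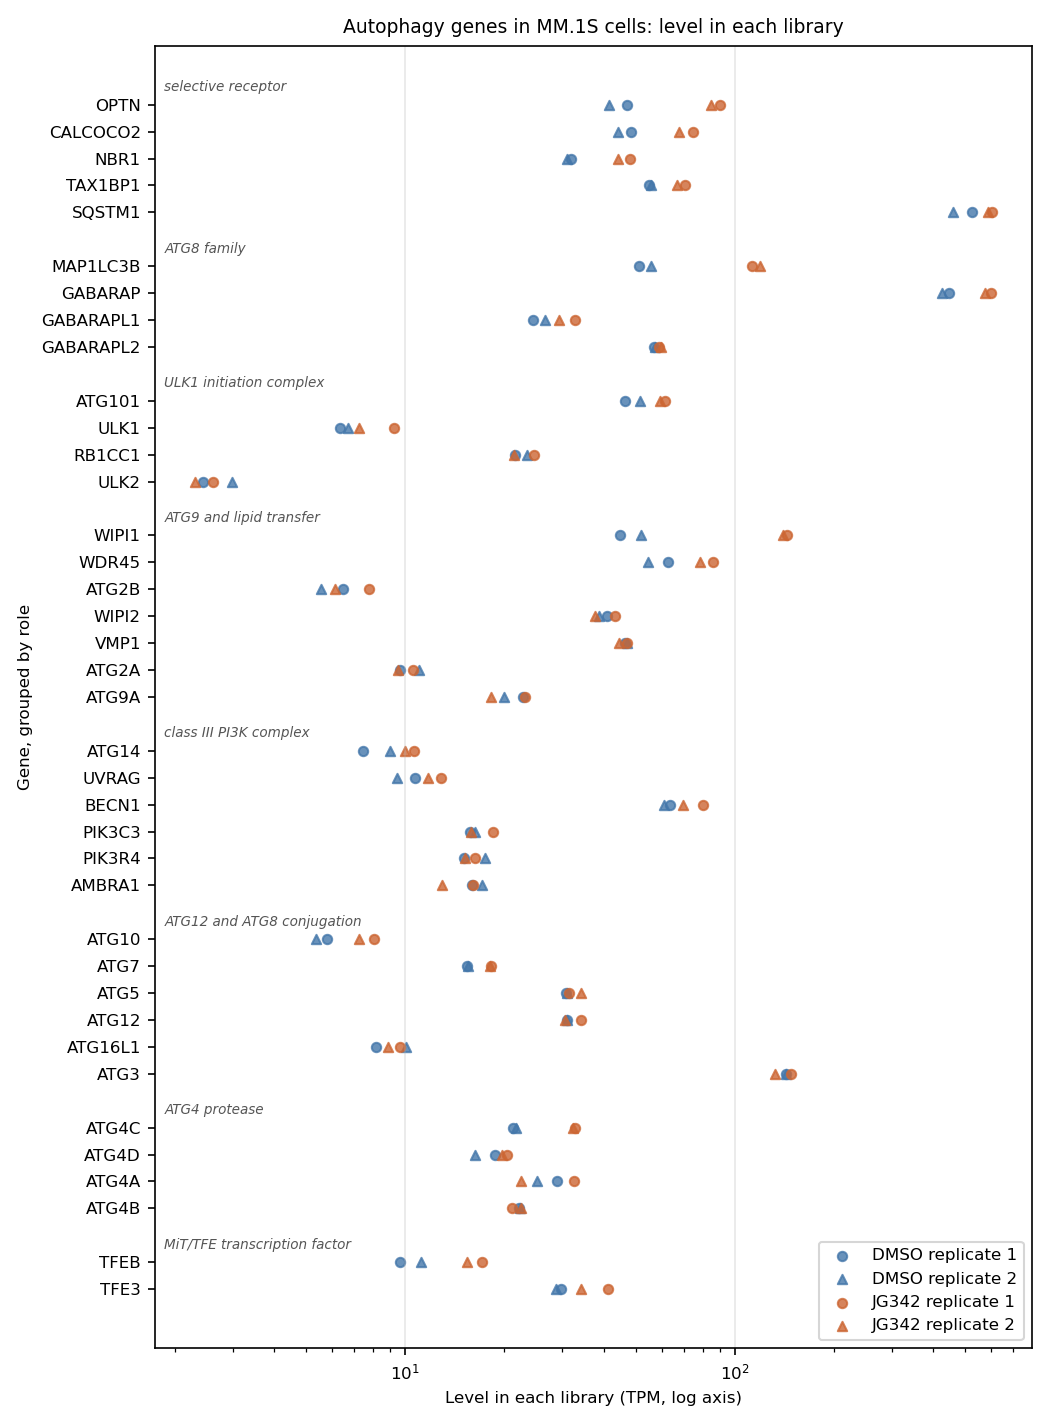
Level of the 38 fitted autophagy genes in each of the 4 libraries, in TPM on a log axis, grouped by role (blue, DMSO; orange, JG342; circles, replicate 1; triangles, replicate 2). WIPI1 and MAP1LC3B show the widest gaps between the treatments, while ATG3, VMP1 and ATG4B overlap.

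The median log2 fold change of the 38 genes was 0.24, against 0.03 over all fitted genes. It was 0.23 between the libraries numbered 1 and 0.14 between those numbered 2, where the medians over all genes were 0.07 and -0.02. Log2 fold changes ran from -0.18 for AMBRA1 to 1.54 for WIPI1. Direction was upward in both same-numbered pairs for 24 genes and downward in both for none, against 40.7% and 34.9% of all fitted genes. Summed over the 39 genes, the level was 2087 and 2001 TPM with DMSO and 2719 and 2572 TPM with JG342, or 0.210% and 0.201% of the library total against 0.273% and 0.259%. The groups do not overlap in this sum, in which SQSTM1 and GABARAP are the 2 most abundant genes. The count of 9 depended most on the DMSO libraries: it was 5 without DMSO replicate 1, 3 without DMSO replicate 2, 7 without JG342 replicate 1 and 10 without JG342 replicate 2 (all 9 and TFE3), and none were called lower in any of these fits. WIPI1, MAP1LC3B and OPTN were called in each of them and in the other alternatives tried. The share of all genes called higher in these fits was 5.38%, 4.77%, 7.91% and 9.19%, in the same order.

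**Figure D2:**
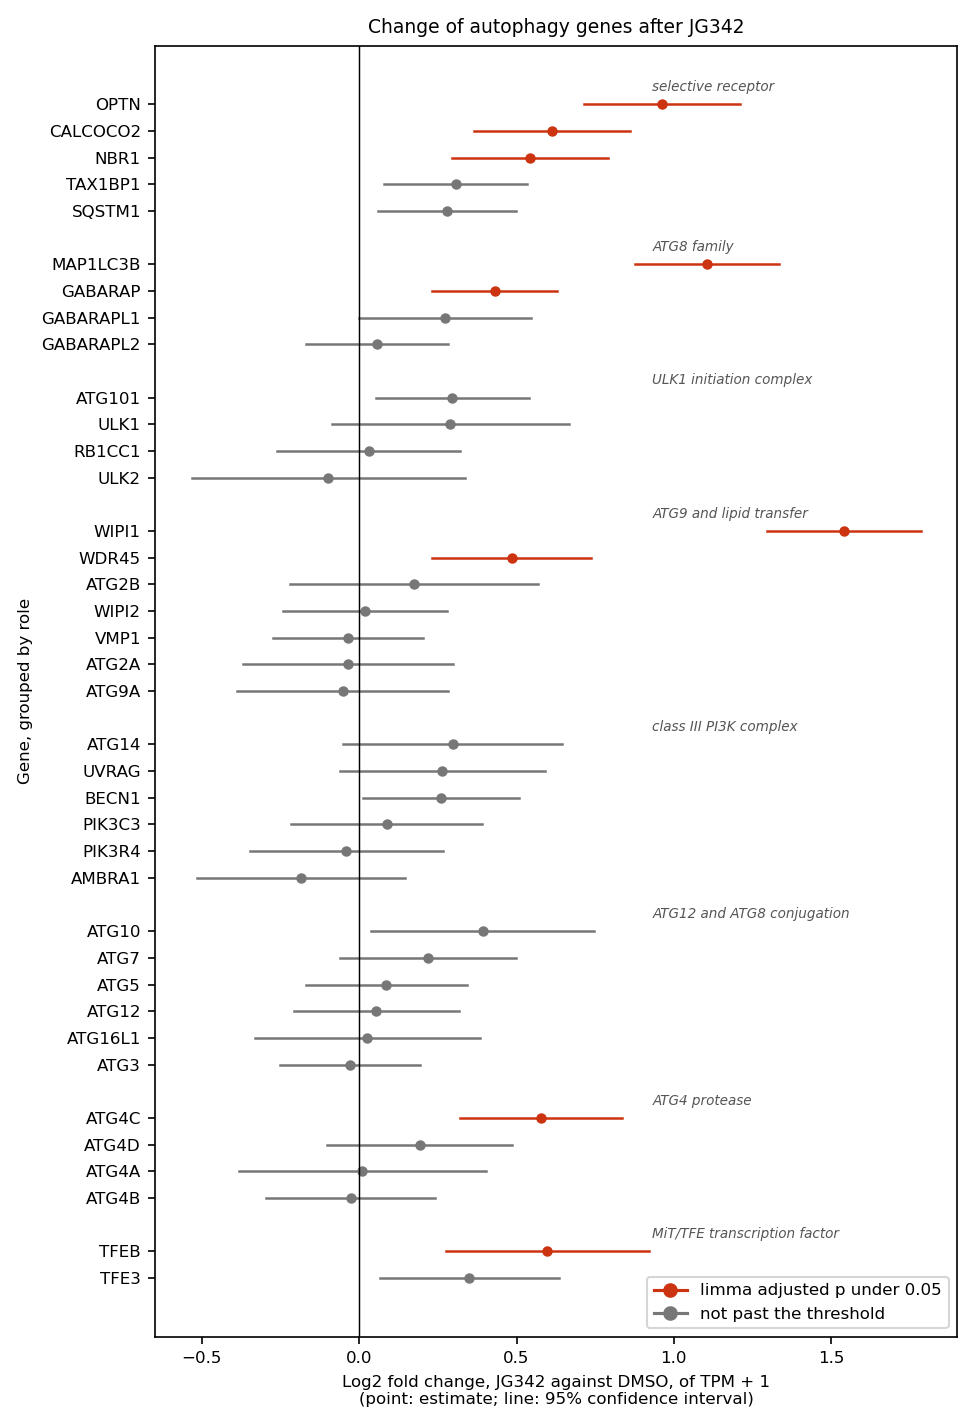
Log2 fold change of TPM + 1, JG342 against DMSO, for the 38 fitted autophagy genes by role, as the limma estimate (point) with its 95% confidence interval (line). The 9 genes in red passed an adjusted p of 0.05, and each lies to the right of 0.

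**Figure D3:**
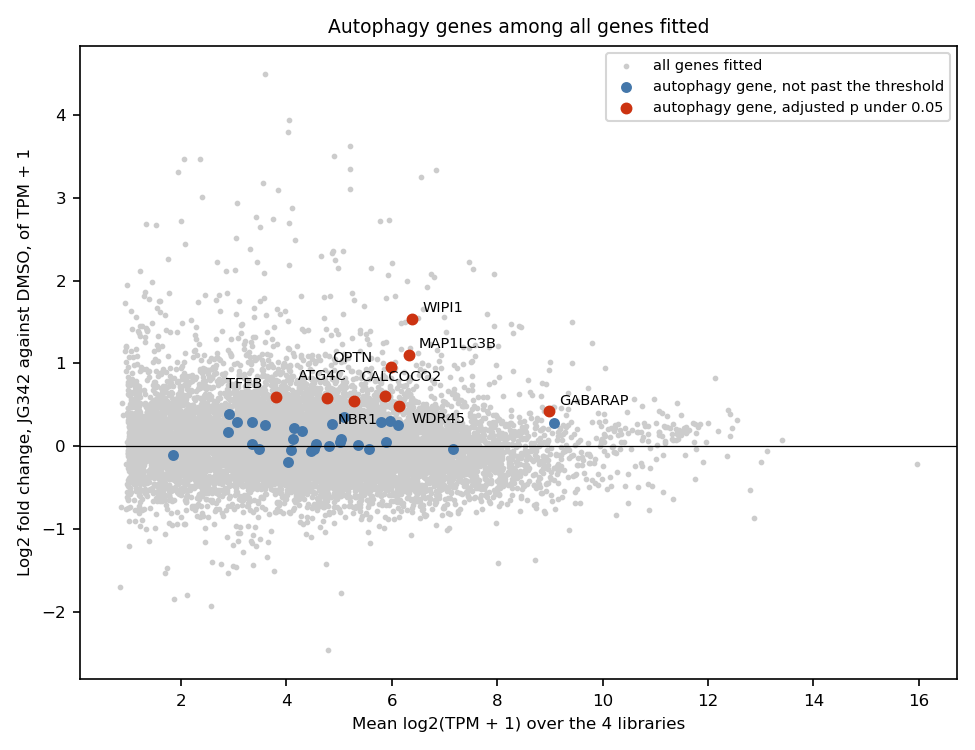
Log2 fold change of TPM + 1 against mean log2(TPM + 1) for the 12042 fitted genes (grey), with the autophagy genes in blue or, where the adjusted p was under 0.05, in red. WIPI1 lies at 1.54, and the highest gene of all at 4.49.

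Promoter sequence is shown for the 3 autophagy genes that rose most and for the only 2 whose promoters held a searched motif, so that the letters can be set beside the changes. RefSeq promoters on GRCh38.p14, from 250 bases before to 50 after a gene's start, matched 36 of the 40 genes with 47 promoters. The 3 motifs searched, on both strands, were the E-box CACGTG, the longer TCACGTGA at the core of the element bound by TFEB, which contains the E-box, and TGATGNAAT, the element bound by ATF4 with C/EBP partners. The 100 bases before the start are printed 5′ to 3′, with motif letters in capitals. They lie at chr17:68457497-68457596 on the minus strand for WIPI1, chr16:87392236-87392335 on the plus strand for MAP1LC3B, and chr10:13099982-13100081 on the plus strand for OPTN (the first of its 2 listed starts). Those of ATG3 and ATG14 lie at chr3:112561963-112562062 and chr14:55411831-55411930, both on the minus strand.
WIPI1: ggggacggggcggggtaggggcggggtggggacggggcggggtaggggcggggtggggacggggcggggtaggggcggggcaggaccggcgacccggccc
MAP1LC3B: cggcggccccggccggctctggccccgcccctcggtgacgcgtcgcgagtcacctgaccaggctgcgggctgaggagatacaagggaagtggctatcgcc
OPTN: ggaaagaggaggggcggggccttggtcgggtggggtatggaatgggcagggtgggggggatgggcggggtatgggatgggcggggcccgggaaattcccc
ATG3: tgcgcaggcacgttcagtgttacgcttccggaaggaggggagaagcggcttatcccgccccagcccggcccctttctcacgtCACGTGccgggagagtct
ATG14: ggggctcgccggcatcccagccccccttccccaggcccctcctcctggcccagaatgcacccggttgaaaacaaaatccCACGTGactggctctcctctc

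None of the 9 genes that rose held any of the 3 motifs in these windows. CACGTG was found in 2 of the 47 promoters, those of ATG3 and ATG14, against 7.26% of the 35116 promoters in the table. ATG3, which holds it at -18 and at 5 from the start, and ATG14, at -21, did not pass the test. TCACGTGA was found in the ATG3 promoter only, 4 bases after the start, against 0.98% of all promoters, and TGATGNAAT in none of the 47, against 0.99%. A match or its absence describes these letters in this window and says nothing of what binds there.

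Cargo receptors were the role with the most genes called, 3 of 5. They bind ubiquitinated cargo at one end and ATG8 proteins at the other. Counts by role, here and below, stand against 10.8% of all fitted genes called higher and 7.62% called lower. No role had more than 7 fitted genes, so a role with none called is close to those shares. OPTN, optineurin, a receptor for damaged mitochondria and bacteria, was at 47.2 and 41.6 TPM in DMSO replicates 1 and 2 and at 90.0 and 84.6 TPM in JG342 replicates 1 and 2. The groups lie far apart, and the rise from 44.4 ± 3.97 TPM (SD, n = 2) to 87.3 ± 3.85 TPM amounted to 0.96 ± 0.11 (SE) in log2 terms (limma adjusted p 0.00100). CALCOCO2, also called NDP52, read 48.4 and 44.1 TPM with DMSO and 74.7 and 67.8 TPM with JG342, a rise of 0.61 ± 0.11 (limma adjusted p 0.00718). Without DMSO replicate 2 it missed the threshold (limma adjusted p 0.0613). NBR1, a receptor related in domain layout to SQSTM1, read 31.8 and 30.9 TPM with DMSO and 48.0 and 44.3 TPM with JG342, a rise of 0.54 ± 0.11 (limma adjusted p 0.0112). It missed the threshold without DMSO replicate 1 or without DMSO replicate 2 (limma adjusted p 0.0546 and 0.0794).

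SQSTM1, or p62, the most abundant of the 39 genes on average, did not pass. Its levels were 523 and 459 TPM with DMSO and 604 and 586 TPM with JG342. The groups do not overlap, and the DMSO libraries differ by more than the JG342 libraries. The SE was still below the 0.11 of OPTN, CALCOCO2 and NBR1, which were called with larger estimates. The log2 difference between the treatments, 0.28 ± 0.10, had a limma adjusted p of 0.0775. The 95% confidence interval of that difference ran from 0.06 to 0.50. TAX1BP1, a receptor that works with NBR1, was at 55.0 and 55.9 TPM with DMSO and 70.9 and 66.8 TPM with JG342, a log2 difference of 0.31 ± 0.10 (limma adjusted p 0.0660). Part of the SQSTM1 transcript (25.5% of its length) is identical in sequence to a transcript of the neighbouring gene MRNIP, on the same or the opposite strand. The search did not record which, so whether reads from that stretch could belong to either gene is not known.

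Of the ATG8 family, the proteins conjugated to the membrane, 2 of 4 fitted genes rose. MAP1LC3B, which encodes the LC3B protein used as the standard marker of autophagosomes, was at 51.2 and 55.6 TPM with DMSO and at 113 and 119 TPM with JG342. The gap between the groups is far wider than the replicate spread, and the mean rose 2.17-fold, by 1.11 ± 0.10 on the log2 scale (limma adjusted p 0.000316). A stretch of 22.3% of its transcript matches MAP1LC3B2 at 97.3% identity, and MAP1LC3B2 was not analysed here. GABARAP, the most abundant ATG8 gene, read 446 and 425 TPM with DMSO and 598 and 576 TPM with JG342, a rise of 0.43 ± 0.09 (limma adjusted p 0.0118). GABARAP missed the threshold without DMSO replicate 1, without DMSO replicate 2 and with no variance trend in the fit (limma adjusted p 0.0585, 0.106 and 0.0570). GABARAPL1 was at 24.5 and 26.5 TPM with DMSO and 32.8 and 29.3 TPM with JG342, which missed the threshold at 0.27 ± 0.12 (limma adjusted p 0.151). GABARAPL2 was nearly level, at 56.9 and 57.1 TPM with DMSO and 58.9 and 59.8 TPM with JG342, and the 95% confidence interval of its log2 difference ran from -0.17 to 0.28 (limma adjusted p 0.730). The sign of that difference turned after median scaling (-0.01). MAP1LC3A was listed at 0.22 and 0 TPM with DMSO and at 0 and 0.21 TPM with JG342, and was not fitted.

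The genes around ATG9 and lipid transfer divided: 2 of 7 rose and the other 5 did not pass. WIPI1, a beta-propeller protein that binds phosphatidylinositol 3-phosphate on the forming autophagosome, was at 44.7 and 52.0 TPM in the DMSO libraries and at 144 and 141 TPM in the JG342 libraries. No other member moved as far, and its rise ranked 99 among those of the 12042 fitted genes. The mean went from 48.4 ± 5.14 TPM (SD, n = 2) to 142 ± 2.29 TPM, 2.94-fold, by 1.54 ± 0.11 on the log2 scale (limma adjusted p 7.74e-05), and by 1.66 and 1.42 between libraries numbered 1 and 2. WDR45, or WIPI4, which ties ATG2 to the membrane, was at 62.5 and 54.5 TPM with DMSO and at 85.9 and 78.4 TPM with JG342, a rise of 0.48 ± 0.11 (limma adjusted p 0.0190). Its transcript resembles the processed pseudogene WDR45P1, at 95.8% identity over 66.1% of its length, so its level is uncertain. WDR45 missed the threshold in 4 other fits: without DMSO replicate 2 (limma adjusted p 0.142), without JG342 replicate 1 (0.0751), with no filter on low values (0.0691) and with no variance trend (0.0582).

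WIPI2, the family member that recruits ATG16L1, contrasts with WIPI1 in its values. It was at 40.9 and 38.9 TPM with DMSO and 43.2 and 37.8 TPM with JG342, with overlapping groups, and the 95% confidence interval of its log2 difference ran from -0.24 to 0.28. That interval lies below the one for WIPI1, which ran from 1.29 to 1.78; the difference between the 2 genes was not itself tested. ATG9A, the scramblase carried on vesicles, and VMP1, an endoplasmic reticulum scramblase, had log2 differences of -0.05 and -0.04. The lipid transfer proteins ATG2A and ATG2B had -0.04 and 0.18. The groups overlapped for each of these 4 genes, whose limma adjusted p lay between 0.519 and 0.890.

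Shares within a family are given next as a description, without a test. In the WIPI family (WIPI1, WIPI2, WDR45B and WDR45), the summed level was 199 and 199 TPM with DMSO and 338 and 315 TPM with JG342. WIPI1 made up 22.5% and 26.2% of it with DMSO and 42.6% and 44.6% with JG342. It stood behind WDR45 and WDR45B in both DMSO libraries and ahead of them in both JG342 libraries. WIPI2 made up 20.5% and 19.5% with DMSO and 12.8% and 11.99% with JG342. In the ATG8 family, GABARAP held 73.4% to 77.0% in every library. MAP1LC3B went from 8.85% and 9.84% to 14.1% and 15.2%, and GABARAPL2 from 9.83% and 10.1% to 7.33% and 7.63%, so that their order turned between the treatments. A lower share is not a fall in level here. The level of GABARAPL2 was slightly higher in both JG342 libraries, and that of WIPI2 overlapped between the groups.

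**Figure D4:**
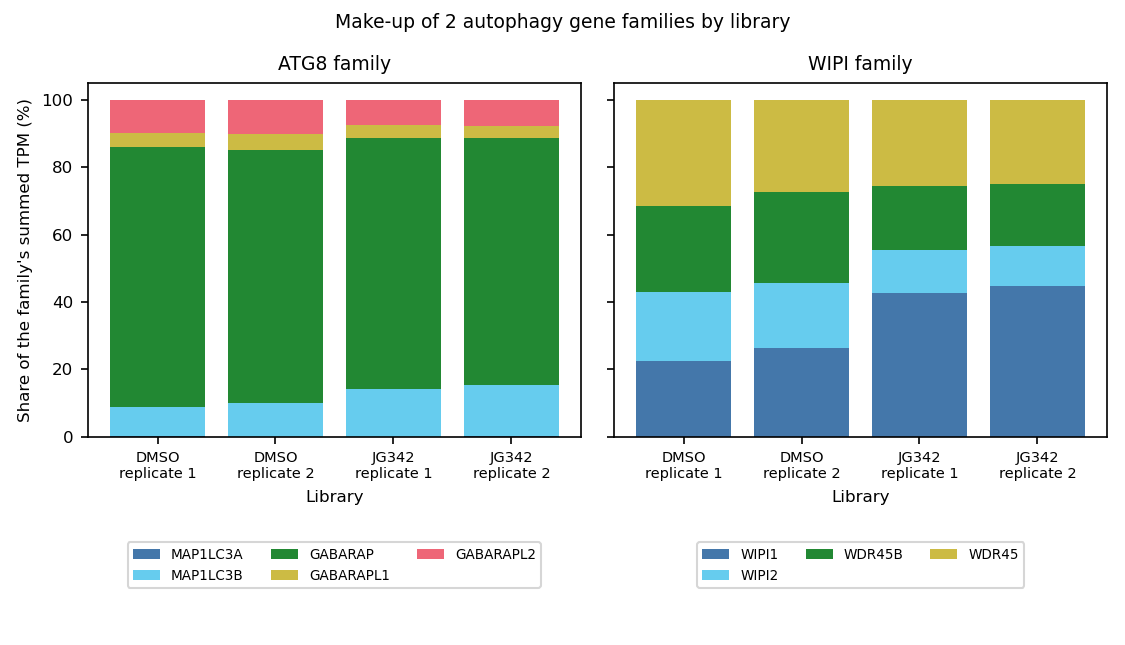
Share of each gene in the summed TPM of the ATG8 family (left) and the WIPI family (right), in percent, 1 stacked bar per library. WIPI1 goes from 22.5% and 26.2% with DMSO to 42.6% and 44.6% with JG342, while GABARAP stays between 73.4% and 77.0%.

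No gene of the ULK1 initiation complex passed, of 4 fitted, a count close to the share of all genes called. ULK1, the kinase that starts autophagy, was at 6.33 and 6.73 TPM with DMSO and at 9.25 and 7.26 TPM with JG342. The JG342 libraries sit above the DMSO libraries but spread widely, and the log2 difference of 0.29 ± 0.17 had a limma adjusted p of 0.257. ATG101, a scaffold subunit, was at 46.5 and 51.6 TPM with DMSO and 61.3 and 59.4 TPM with JG342 (difference 0.30 ± 0.11, limma adjusted p 0.0876). For ULK2, a second kinase, and RB1CC1, the large scaffold also called FIP200, the groups overlapped, with log2 differences of -0.10 and 0.03.

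The class III PI3K genes gave no call either, in 6 genes. BECN1, beclin 1, the regulatory core of the complex, was at 63.7 and 61.1 TPM with DMSO and at 80.3 and 69.8 TPM with JG342. All its JG342 values exceed the DMSO values, yet 0.26 ± 0.11 missed the threshold (limma adjusted p 0.133). Some of the BECN1 transcript (23.9%) is identical to a transcript of the neighbouring gene CNTD1, on a strand that the search did not record. ATG14, which directs the complex to autophagosome formation, and UVRAG, which directs it to later vesicle traffic, had differences of 0.30 ± 0.15 and 0.26 ± 0.14, with groups that do not overlap (limma adjusted p 0.211 and 0.233). The lipid kinase itself, PIK3C3, and its partner PIK3R4 had 0.09 and -0.04. AMBRA1, a scaffold that links beclin 1 to ubiquitin ligases, had the lowest estimate of the 38 genes, -0.18 ± 0.15, with values of 15.96 and 17.08 TPM against 16.05 and 12.92 TPM, so that the groups overlap (limma adjusted p 0.407).

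The conjugation enzymes showed no called change in 6 genes. ATG7, the E1-like enzyme at the head of both conjugation reactions, had close replicates, at 15.4 and 15.5 TPM with DMSO and 18.2 and 18.1 TPM with JG342. At 0.22 ± 0.12 it missed the threshold all the same (limma adjusted p 0.252). ATG10, the E2-like enzyme for ATG12, had the highest estimate of the role, from 5.80 and 5.37 TPM to 8.07 and 7.23 TPM, or 0.39 ± 0.16 (limma adjusted p 0.114). ATG3, the E2-like enzyme that hands ATG8 to lipid, was at 143 and 143 TPM with DMSO and 148 and 132 TPM with JG342, and the 95% confidence interval of its difference ran from -0.25 to 0.19. ATG5, ATG12 and ATG16L1, which form the complex that places ATG8 on the membrane, had log2 differences of 0.09, 0.05 and 0.03 and limma adjusted p between 0.639 and 0.927.

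Of the 4 ATG4 proteases, which trim ATG8 proteins before conjugation and release them afterwards, ATG4C was called. It was at 21.2 and 21.6 TPM with DMSO and at 32.8 and 32.2 TPM with JG342, groups far apart for so small a replicate spread. The rise was 0.58 ± 0.11 (limma adjusted p 0.0101). ATG4C missed the threshold without DMSO replicate 1 and without DMSO replicate 2 (limma adjusted p 0.0595 and 0.0634). ATG4B, known as the most active of the 4 enzymes, was at 22.1 and 22.3 TPM with DMSO and 21.1 and 22.4 TPM with JG342 (difference -0.03 ± 0.12). ATG4A and ATG4D had 0.01 ± 0.17 and 0.19 ± 0.13 (limma adjusted p 0.977 and 0.337).

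TFEB and TFE3 are transcription factors that move to the nucleus when mTORC1 is inactive and switch on lysosomal and autophagy genes. TFEB was at 9.67 and 11.2 TPM with DMSO and at 17.1 and 15.5 TPM with JG342, a rise of 0.60 ± 0.14 (limma adjusted p 0.0209). It missed the threshold without DMSO replicate 1, DMSO replicate 2 or JG342 replicate 1 (limma adjusted p 0.129, 0.0651 and 0.0749), and with no filter on low values (limma adjusted p 0.0778). TFE3 was at 29.8 and 28.6 TPM with DMSO and 41.1 and 34.2 TPM with JG342, or 0.35 ± 0.13, which missed the threshold (limma adjusted p 0.0857).

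Other genes of the pathway were taken from lists drawn up by function, whose counts stand against 10.8% of all fitted genes called higher and 7.62% called lower (4.77% to 9.19% higher and 1.59% to 5.96% lower with 1 library left out). These lists were chosen with earlier results of these data known. An excess over those shares is therefore a description and not an independent test. The first list held 17 genes, further receptors for selective autophagy and genes that work with receptors, such as the kinase TBK1. Of these, 4 rose (23.5%) and none fell, and the median log2 fold change was 0.15. CCPG1, a receptor for the endoplasmic reticulum, was at 51.1 and 50.7 TPM with DMSO and at 223 and 215 TPM with JG342, a rise of 2.08 ± 0.09 (limma adjusted p 1.69e-05) that exceeds that of WIPI1. CALCOCO1, a relative of CALCOCO2 that also binds the endoplasmic reticulum, was at 29.5 and 28.8 TPM with DMSO and 57.9 and 52.8 TPM with JG342, a rise of 0.90 ± 0.11 (limma adjusted p 0.00139). CCPG1 and CALCOCO1 were called in every fit tried. STBD1, a glycogen receptor, and RTN3, a reticulon of the endoplasmic reticulum, rose by 0.70 and 0.40 (limma adjusted p 0.0156 and 0.0223). STBD1 missed the threshold without DMSO replicate 2 (limma adjusted p 0.112) or JG342 replicate 1 (0.0595). RTN3 missed it without DMSO replicate 1 (limma adjusted p 0.0764), DMSO replicate 2 (0.148) or JG342 replicate 1 (0.102). With no filter on low values neither was called (limma adjusted p 0.0851 for STBD1 and 0.0686 for RTN3), nor was RTN3 with no variance trend (0.0783). The endoplasmic reticulum receptors SEC62, TEX264 and ATL3 lay between -0.08 and 0.03 and did not pass. RETREG1, another of them, read 1.33 and 2.27 TPM with DMSO and 2.60 and 3.23 TPM with JG342, groups that do not overlap, and did not pass at 0.50 ± 0.23 (limma adjusted p 0.158).

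**Figure D5:**
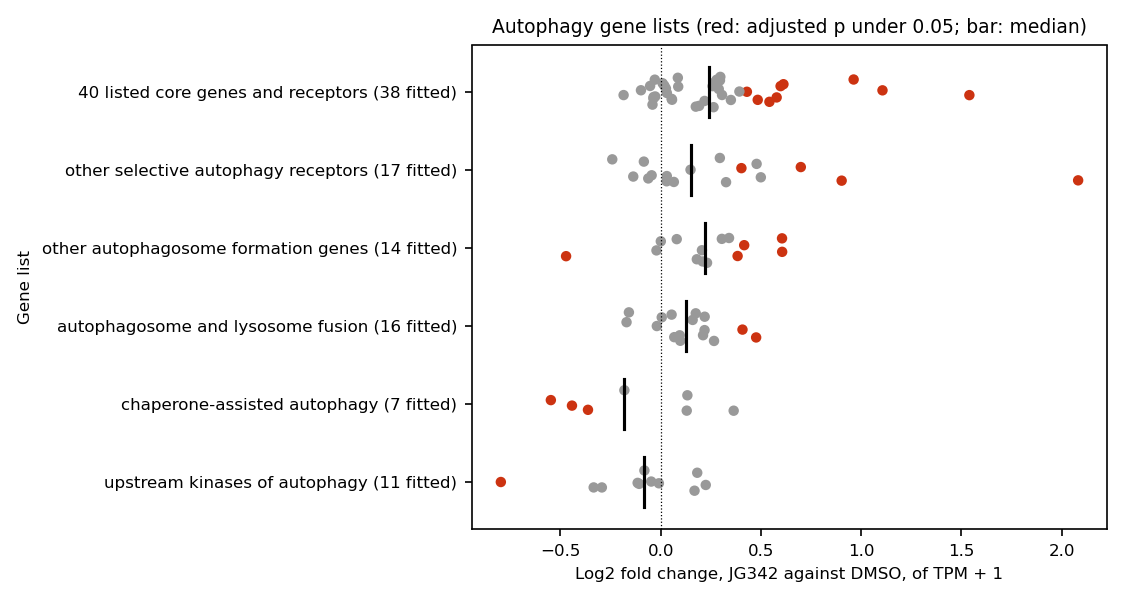
Log2 fold change of TPM + 1, JG342 against DMSO, for each fitted gene (point) of the autophagy list and of 5 further lists, with the median as a bar and genes at an adjusted p under 0.05 in red. The far right point is CCPG1 at 2.08, and the 3 red points of the chaperone-assisted list lie below 0.

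Of 14 other fitted genes of autophagosome formation, 4 rose (28.6%) and 1 fell, the latter a share close to that of all genes (median 0.22). TMEM41B, a scramblase that works with VMP1, went from 38.2 and 42.8 TPM to 64.8 and 59.6 TPM, a rise of 0.61 (limma adjusted p 0.00819), and missed the threshold without DMSO replicate 1 (limma adjusted p 0.0581). RUBCN, a negative regulator of autophagosome maturation, and ZFYVE1, which marks the membrane site of autophagosome birth, rose by 0.42 and 0.61 (limma adjusted p 0.0257 and 0.0442). EI24, an endoplasmic reticulum protein required for autophagy, fell by 0.47 on the log2 scale (limma adjusted p 0.0195). With 1 library left out, between 0 and 2 of these genes were called higher (0 without DMSO replicate 1) and at most 1 lower. RUBCN was lost without DMSO replicate 1, DMSO replicate 2 or JG342 replicate 1 (limma adjusted p 0.107, 0.131 and 0.0957), ZFYVE1 without DMSO replicate 1, DMSO replicate 2 or JG342 replicate 2 (0.191, 0.122 and 0.169), and EI24 without the same libraries as ZFYVE1 (0.0869, 0.106 and 0.0847). With no filter on low values none of these 3 was called (limma adjusted p 0.0573, 0.112 and 0.0716, in that order). RUBCN and EI24 were also lost with no variance trend (limma adjusted p 0.0606 and 0.0629), and ZFYVE1 after median scaling (0.0717) and quantile normalization (0.0924). Of 16 genes for fusion with the lysosome, 2 rose, VPS11 and VPS41 of the HOPS tethering complex, by 0.41 and 0.48 (limma adjusted p 0.0386 and 0.0406), and none fell (median 0.13). That is 12.5%, close to the 10.8% of all genes, and the count is not stable: it was 0 without DMSO replicate 1, DMSO replicate 2 or JG342 replicate 1 and 1 without JG342 replicate 2, and neither gene passed after median scaling (limma adjusted p 0.0786 for VPS11 and 0.0644 for VPS41), after quantile normalization (0.0683 and 0.0699), with no filter on low values (0.0841 and 0.111) or with no variance trend (0.0762 and 0.0740).

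In the list for chaperone-assisted routes, none of 7 fitted genes rose and 3 fell (median -0.18), where 7.62% of all genes fell. HSPA8, the HSP70 protein that carries cargo in chaperone-mediated autophagy, was at 2724 and 2760 TPM with DMSO and 2096 and 1678 TPM with JG342, and fell by 0.55 on the log2 scale (limma adjusted p 0.0140). BAG1 and DNAJB6, partners of HSP70, fell by 0.44 and 0.36 (limma adjusted p 0.0200 and 0.0451). DNAJB2 and STUB1 went the other way, with groups that do not overlap, but did not pass. DNAJB2 was at 42.0 and 41.8 TPM with DMSO and 59.4 and 49.5 TPM with JG342 (log2 difference 0.36 ± 0.12, limma adjusted p 0.065). STUB1 had a log2 difference of 0.13 (limma adjusted p 0.355). BAG3, which hands HSP70 clients to autophagy, was at 28.0 and 33.3 TPM against 25.2 and 28.4 TPM, with overlapping groups, and LAMP2, the lysosomal receptor of the chaperone-mediated route, was at 62.3 and 59.7 TPM against 74.9 and 59.9 TPM. The 3 falls were not called without DMSO replicate 1 or without DMSO replicate 2. Their limma adjusted p was then 0.0803 and 0.102 for HSPA8, 0.107 and 0.101 for BAG1 and 0.199 and 0.138 for DNAJB6. Without JG342 replicate 2, BAG1 and DNAJB6 were not called (limma adjusted p 0.0694 and 0.193), and 1 other gene of the list was called higher. With no filter on low values the 3 falls were likewise lost (limma adjusted p 0.0925, 0.0528 and 0.104), as they were with no variance trend (0.0556, 0.0537 and 0.112), and DNAJB6 was lost after quantile normalization (0.0898).

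A further list held 11 fitted subunits of AMPK, mTORC1 and LKB1, the kinases that signal energy and amino acid supply to ULK1. None rose and 1 fell (median -0.08). Over all fitted genes, 10.8% were called higher and 7.62% lower, so the 1 fall is a share close to theirs. DEPTOR, an inhibitor of mTOR that is abundant in myeloma, fell from 169 and 183 TPM to 114 and 89.6 TPM, by 0.80 on the log2 scale (limma adjusted p 0.00400). MTOR was at 23.9 and 21.9 TPM against 23.3 and 21.0 TPM, with a log2 difference of -0.05 (limma adjusted p 0.830). Kinase activity is not measured by transcript level.

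Known targets of stress and nutrient regulators were counted as well. These counts stand against 10.8% of all fitted genes called higher and 7.62% called lower. The target lists, too, were chosen with earlier results of these data known, so the contrast is a description. The shares over all genes with 1 library left out are those given above for the other lists. Of 12 genes reported in mouse cells as targets of ATF4 or its partner CHOP in amino acid starvation, all of them members, 3 rose and none fell (median 0.24). They were MAP1LC3B, GABARAP and NBR1, while ATG3, ATG5, ATG12, ATG16L1 and GABARAPL2 had differences between -0.03 and 0.09. With 1 library left out the count was 1 to 3, with 1 without either DMSO library. Of 6 reported TFEB targets, WIPI1, MAP1LC3B and VPS11 rose, none fell, and the median was 0.34; with 1 library left out the count was 2. SQSTM1 and UVRAG, both also in this list, had differences of 0.28 and 0.26 that did not pass, and VPS18 had -0.02. VPS11 and VPS18 are outside the 40 genes. MAP1LC3B and SQSTM1 are in both target lists, so the counts are not independent of each other or of the counts by role.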

How the data were processed

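RNA was sequenced in 2 DMSO and 2 JG342 libraries of MM.1S cells. The authors deposited TPM values, 1 row per gene with a RefSeq accession. The unit was taken from the values. Per the submitters' processing notes, HISAT2 2.0.4, Bowtie2 2.2.5 and RSEM 1.2.12 were used; build, annotation and strandedness are not given in the sources used here. Values were fitted as log2(TPM + 1) with limma 3.58.1 (R 4.3.3; variance trend, two-sided, Benjamini-Hochberg adjusted over all 12042 genes whose mean reached 1 TPM), so fold changes of low genes are understated. The code was tested on simulated data. With 2 libraries a group, an exact permutation test of 1 gene cannot go below 0.333, and none was used. Near-identical transcripts of the members were searched on both strands with BLAST 2.17.0 in GENCODE 29 (95% identity over 20% of a transcript). The strand of a match was not kept. Members, lists and the rule for named genes (called members, receptors, ATG8 genes, and up to 4 called genes of each further list with the smallest adjusted p) were chosen with earlier results of these data known. BAG3, LAMP2, DNAJB2, STUB1, MTOR, SEC62, TEX264, ATL3, RETREG1, TBK1 and the other members were named beyond that rule. Plasma cell and other markers checked the label. Alternatives changed the pseudocount, filter, scaling, variance trend, replicate block and libraries.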

Additional observations from a re-analysis of the deposited data

How the results depend on the processing

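The results were recomputed under 13 alternatives, and no autophagy gene was called lower in any of them. The count of 9 genes called higher was 9 with a pseudocount of 0.1 or 5, with the filter raised to a mean of 5 TPM, and after median scaling or quantile normalization. The share of all fitted genes called higher in those fits ran from 8.03% to 12.92%. It was 7 with no filter on low values or no variance trend, and 3 to 10 with 1 library left out. With the replicate number as a block it was 14 (19.2% of all genes were then called higher), adding ATG101, BECN1, SQSTM1, TAX1BP1 and TFE3 (limma adjusted p 0.0165, 0.0306, 0.00162, 0.0104 and 0.01002). With the replicate block and median scaling together it was 11 (14.61% of all genes were then called higher and 20.49% lower), adding TAX1BP1 and TFE3. ATG101, BECN1 and SQSTM1 were then not called (limma adjusted p 0.0553, 0.0882 and 0.0945). Same-numbered libraries share a prefix in their description that may be a date, but the labels do not say what it marks. Deviations of same-numbered libraries from their group means correlated across genes with an r of 0.27, and the block leaves 1 residual degree of freedom. With the block alone, the prior degrees of freedom in limma were infinite. Each gene's variance was then taken from the trend and not from its own spread. The median log2 fold change of the members was 0.17 after median scaling, with or without the block, and 0.15 after quantile normalization. The median of all genes was 0.03, and -0.04 and -0.03 under those settings. With 1 library left out, the median of the members was 0.16 to 0.31 and that of all genes 0.0042 to 0.0537. GABARAPL2 changed sign, to -0.0088, after median scaling with or without the block. Leaving out a library leaves 1 arm with a single sample, assumed to vary like the other arm. The cause of these changes was not tested.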

Other observations

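Shares were also taken within the cargo receptors and the ATG4 proteases, as a description without a test. SQSTM1 held 74.1% and 72.7% of the summed receptor level with DMSO and 68.0% and 69.0% with JG342. Its own level was higher in both JG342 libraries than in either DMSO library. OPTN went from 6.69% and 6.58% to 10.1% and 9.96%. The 4 ATG4 genes each held between 19.1% and 31.8% with DMSO. ATG4A led them in both DMSO libraries and ATG4C in both JG342 libraries, at 30.7% and 33.3%.

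NRBF2, a subunit of the class III PI3K complex outside the 40 genes, was the remaining called gene of autophagosome formation. Its level was 35.1 and 38.4 TPM with DMSO and 45.9 and 50.6 TPM with JG342, a rise of 0.38 ± 0.11 (SE, limma adjusted p 0.0463). It was named after its values were seen, and it missed the threshold with each library left out in turn (limma adjusted p 0.0606 to 0.220), with no filter on low values (0.0937), with no variance trend (0.0895), after median scaling (0.0867) and after quantile normalization (0.0651).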
